A study of Mus musculus with 4 samples.

Results

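The nuclear oxidative phosphorylation genes encode the subunits of respiratory complexes I, III and IV and of ATP synthase, complex V, that are not made from mitochondrial DNA. They were chosen by symbol: genes whose symbol starts with Ndufa, Ndufb, Ndufc, Ndufs, Ndufv, Uqcr, Atp5, Cox4i, Cox5, Cox6, Cox7 or Cox8 and that had at least 100 UMIs (unique molecular identifiers, each marking 1 captured RNA molecule) over all barcodes, without the Ndufaf assembly factors and without Cox6a2. Of 90 symbols with such a start, 78 were members, out of 32285 genes in the tables: 37 of complex I, 8 of complex III, 16 of complex IV and 17 of complex V. The symbols left out were 8 Ndufaf genes, Cox6a2 and 3 genes below the minimum, namely Cox8b with 15 UMIs and Cox7b2 and Cox8c with 0. Just inside the minimum stood Ndufa4l2 with 189 UMIs, Cox4i2 with 683 and Cox6b2 with 1935. Ndufa4 and Ndufa4l2, whose symbols carry the name of complex I, were placed with complex IV, where the NDUFA4 protein is known to sit. The members lie on 19 chromosomes, and 1 of them, Ndufb1-ps, is annotated as a non-coding transcript of a shared promoter and not as protein coding.

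The data are single-cell RNA counts from cells sorted for CD11c and MHC-II, surface markers of dendritic cells (DCs) that other myeloid cells share, out of B16-F10 melanomas grown under the skin of C57BL/6 mice. On day 12 the tumors were injected with Ad-COMBO (ISF35 with mIFNB, a mixture), Ad-mIFNB (mouse interferon beta), Ad-MEM40 (treatment label ISF35, a chimeric CD40 ligand) or Ad-Null (empty vector), so all 4 groups received adenovirus. Each group is 1 library pooled from 3 tumors. Comparisons between libraries therefore have no replicates and no test, and treatment, tumors and library cannot be told apart.

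Complex I takes electrons from NADH and complex III passes them to cytochrome c. Complex IV hands them to oxygen, and the protons pumped on the way drive complex V to make ATP. Each of these complexes joins subunits from the nucleus with subunits encoded by mitochondrial DNA. Dendritic cells are known to shift from respiration toward glycolysis when they mature, while resting and dividing cells draw on respiration to differing extents.

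The kept cells numbered 668 in Ad-COMBO, 1807 in Ad-mIFNB, 13378 in Ad-MEM40 and 7286 in Ad-Null, with median depths of 11416.5, 13613, 8945.5 and 14106 UMIs per cell in the same order. Marker gates placed 66.0% of the kept cells in a class, and 1730 gated cells stood at the minimum number of markers. Against the DC label, 13.8% of Ad-COMBO, 13.6% of Ad-mIFNB, 31.0% of Ad-MEM40 and 20.0% of Ad-Null cells passed the macrophage gate. Mature DC-gated cells were 21.9% of Ad-COMBO, 12.4% of Ad-mIFNB, 6.56% of Ad-MEM40 and 5.35% of Ad-Null cells. Ad-MEM40 and Ad-Null shared 34 cell barcodes, 0.467% of the kept cells of Ad-Null, and no other pair shared more than 7.

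RefSeq promoter windows of GRCm38.p6, reaching from 250 bases before to 50 bases after a start site, were found for 65 of the 78 members, in 70 windows. Motifs of NRF1, YY1 and the ETS family, transcription factors known to act at nuclear respiratory genes, were searched on both strands. The NRF1 motif GCGCATGCG was in 8 member windows, 11.4%, against 1.75% of all 32851 windows of the table and 4.07% of those of measured protein-coding genes. The YY1 motif AAGATGGCG was in 7 windows, 10.0%, against 1.40% of all and 3.63% of measured coding windows. The ETS core CCGGAAG was in 15 windows, 21.4%, against 8.86% of all and 20.2% of measured coding windows. No motif contains another, and 25 of the 70 windows held at least 1 of them. The stretches below, 5′ to 3′ on the gene's strand, are shown because Uqcr11 had one of the lowest ratios in both libraries that received mIFNB, Atp5k in the single-virus libraries, and Atp5j, with a ratio of -0.32 in Ad-COMBO, belongs to the complex with 15 of 17 members low there. Capitals mark only the motif named in the line or its reverse complement, and the Atp5j stretch also ends in an ETS core.
Uqcr11, NRF1, chr10:80406793-80406851, minus strand: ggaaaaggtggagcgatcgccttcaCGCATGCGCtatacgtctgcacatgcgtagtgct
Uqcr11, ETS, chr10:80406856-80406912, minus strand: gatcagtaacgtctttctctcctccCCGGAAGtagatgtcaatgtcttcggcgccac
Atp5k, NRF1, chr5:108434415-108434473, minus strand: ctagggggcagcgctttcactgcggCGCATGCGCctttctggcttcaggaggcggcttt
Atp5j, YY1, chr16:84835031-84835089, minus strand: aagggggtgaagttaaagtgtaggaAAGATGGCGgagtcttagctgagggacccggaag
A match of letters is a description of these windows. The stretches were picked by the ratios of their genes, and whether motifs go with expression was not tested. Ndufa4, Atp5g1 and Ndufb8, which also had low ratios in Ad-COMBO, are not among the genes whose windows held a motif.

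The mixture was compared with the empty virus first. The nuclear subunits of all 4 complexes lay lower in Ad-COMBO than in Ad-Null, and by similar amounts. Summed over the members, they took 15826 CPM (UMIs scaled to 1000000 per sum of cells), or 1.58% of all UMIs, in Ad-COMBO and 20853 CPM, or 2.09%, in Ad-Null. The log2 ratio of the sums was -0.40 (95% interval -0.41 to -0.39, a normal approximation for Poisson counts that covers counting error only), which is 24.1% lower. The median member ratio was -0.39, against -0.01 for the 7586 measured genes. Member ratios have 5 CPM added to both sides, and a gene is called measured where its mean over the 4 libraries was at least 10 CPM, which held for 74 members.

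Of those 74, 55 were lower in Ad-COMBO by at least 20%, against 17.6% of all measured genes, and 0 were higher by at least 25%, the same fold upward, against 19.0%. Counts of lower and higher genes between libraries use these limits unless stated otherwise. At 1.5-fold, 11 were lower, against 5.33%. The summed ratio was -0.41 for complex I, -0.37 for complex III, -0.38 for complex IV and -0.41 for complex V. Lower by at least 20% were 27 of 37 members of complex I, 5 of 8 of complex III, 8 of 12 measured members of complex IV and 15 of 17 of complex V. Ad-COMBO was the lowest of the 4 libraries for 66 of the 74 members, against 38.4% of all measured genes, and Ad-MEM40 for 6, against 18.1%. Melanoma-gated cells, tumor cells carried through the sort, gave 1.38% of the UMIs of Ad-COMBO and 4.41% of those of Ad-Null. Without them 45 members were lower by at least 20%, against 15.8%, and 6 by 1.5-fold, against 4.34%.

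The lowest ratio belonged to Ndufa4 (chromosome 6, 11900292 to 11907497, GRCm38), the complex IV subunit named above. It had 191.9 CPM (183.2 to 200.9) in Ad-COMBO, 229.6 (224.0 to 235.2) in Ad-mIFNB, 368.9 (365.7 to 372.1) in Ad-MEM40 and 334.8 (331.5 to 338.2) in Ad-Null. Both libraries with mIFNB lay below the other two, and no counting interval overlapped another. The ratio to Ad-Null was -0.79 in Ad-COMBO. Melanoma-gated cells gave 7.27% of the Ndufa4 UMIs of Ad-COMBO, 11.9% of Ad-mIFNB, 29.6% of Ad-MEM40 and 19.2% of Ad-Null. Without them Ndufa4 had 180.4, 206.1, 279.9 and 282.9 CPM in that order, its ratio in Ad-COMBO was -0.63, and Atp5g1 at -0.72, Ndufc1 at -0.66, Uqcr11 at -0.65 and Ndufb8 at -0.64 were lower. Atp5g1 encodes subunit c, the proton-carrying ring of ATP synthase, and had 214.8, 289.8, 373.7 and 360.9 CPM in Ad-COMBO, Ad-mIFNB, Ad-MEM40 and Ad-Null, a ratio of -0.74 in Ad-COMBO. Uqcr11, a small accessory subunit of complex III, had 156.3, 165.9, 215.6 and 258.7 CPM in the same order, a ratio of -0.71.

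Accessory subunits of the membrane arm of complex I were next. Ndufc1 had 127.9 CPM in Ad-COMBO, 151.6 in Ad-mIFNB, 183.1 in Ad-MEM40 and 211.2 in Ad-Null, with a ratio of -0.70 to Ad-Null in Ad-COMBO. Ndufb8 had 159.5, 210.7, 279.5 and 253.2 CPM in that order, with a ratio of -0.65. Ad-COMBO was lowest for both genes, and Ad-MEM40 was below Ad-Null for Ndufc1 and above it for Ndufb8. The other members lower by 1.5-fold in Ad-COMBO included Ndufv1 of the catalytic arm of complex I and its accessory subunits Ndufb2, Ndufa5, Ndufb6 and Ndufb10. At the other end stood Cox7a2l, known for joining complexes III and IV into supercomplexes, with 228.0 CPM in Ad-COMBO, 235.0 in Ad-mIFNB, 250.8 in Ad-MEM40 and 230.3 in Ad-Null. Its ratio in Ad-COMBO was -0.01. Ndufs4, an accessory subunit of complex I, and Uqcrc2, a core protein of complex III, had ratios of -0.14 and -0.15, and Ndufb3 and Ndufa7 of -0.16 and -0.19.

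**Figure D1:**
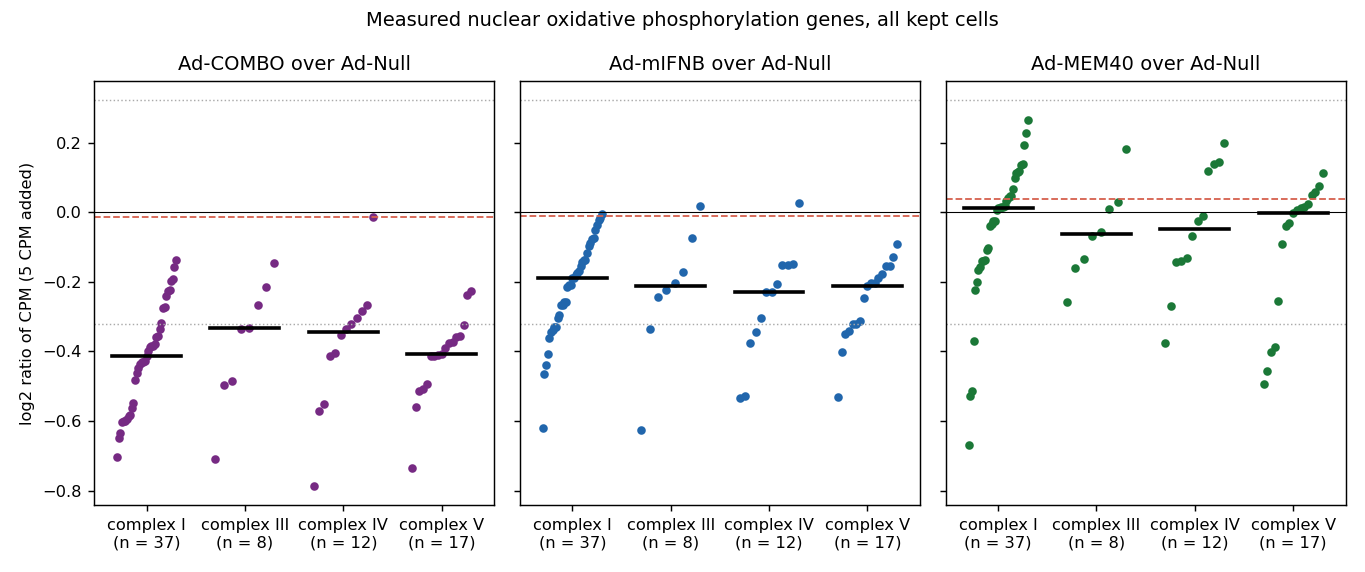
Log2 ratio of each measured member to Ad-Null (5 CPM added) in Ad-COMBO, Ad-mIFNB and Ad-MEM40, with 1 point per gene grouped by complex, black bars for the complex medians, a dashed line for the median of all measured genes and dotted lines for the limits of lower and higher. In Ad-COMBO 74 of 74 members lie below zero, against 51.9% of all measured genes, in Ad-mIFNB 72 and in Ad-MEM40 39.

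Interferon beta virus alone was compared with the empty virus in the same way. The members lay lower in Ad-mIFNB than in Ad-Null, again in every complex, by a smaller amount than in the mixture. They summed to 17605 CPM in Ad-mIFNB and 20853 in Ad-Null, a log2 ratio of -0.24 (-0.25 to -0.24). The median member was at -0.21, against -0.01 for all measured genes, and 72 of 74 members were below zero, against 52.2% of all genes. Lower were 19 members, against 8.27% of genes, and higher were 0, against 11.0%, and without melanoma-gated cells 13 were lower, against 7.41%. Complex I stood at -0.22, complex III at -0.26, complex IV at -0.26 and complex V at -0.25 in summed level.

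Uqcr11 had the lowest ratio in Ad-mIFNB, at -0.63, and Ndufb2, an accessory subunit of the complex I membrane arm, followed at -0.62. Ndufb2 had 74.8 CPM in Ad-mIFNB and 117.7 in Ad-Null, beside 75.9 in Ad-COMBO and 106.3 in Ad-MEM40. Ndufa4 was at -0.53 (-0.45 without melanoma-gated cells), Atp5k, subunit e of the ATP synthase dimer, at -0.53, and Cox7b, a small complex IV subunit, at -0.53. Cox7b had 301.0 CPM in Ad-mIFNB and 435.9 in Ad-Null, and Atp5k had 211.2 and 307.5. The members nearest to or above Ad-Null were Cox7a2l at 0.03, Uqcrc2 at 0.02, Ndufs4 at -0.00, Ndufc2 at -0.02 and Ndufs8 at -0.02.

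The Ad-MEM40 library differed from Ad-Null in another way. Its members split, with several low and others high, and the sum moved little. They added up to 19682 CPM in Ad-MEM40 and 20853 in Ad-Null, a log2 ratio of -0.08 (-0.09 to -0.08), and 0.039 when only cells of 5000 to 15000 UMIs were counted, so the direction of the sum turned with the depth of the cells counted. The median member was at -0.02, against 0.04 for all genes, with 39 of 74 members below zero, against 38.2% of genes. Lower were 9 members, against 2.93%, and higher were 0, against 6.33%. Melanoma-gated cells gave 7.24% of the UMIs of Ad-MEM40 and 4.41% of those of Ad-Null. Without them 51 of 74 members were below zero, and the median member was at -0.04, against 0.03 for all genes. Then 9 members were lower, against 2.86%, and 0 higher, against 6.14%.

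The lowest 5 were Ndufb1-ps, Ndufa3, Ndufa1, Atp5md and Atp5k. Ndufb1-ps had 341.1 CPM in Ad-MEM40 and 545.2 in Ad-Null, a ratio of -0.67, beside 450.6 in Ad-COMBO and 480.6 in Ad-mIFNB. Ndufa3, a short membrane subunit of complex I, had 157.4 CPM in Ad-MEM40 and 229.2 in Ad-Null, at -0.53. Ndufa1, another such subunit, had 115.3 and 166.6 CPM, at -0.51. All 3 were lowest in Ad-MEM40 among the 4 libraries. Atp5md, a subunit of the ATP synthase dimer interface, was at -0.49 and Atp5k at -0.46, and the other members below the limit were Atp5e, Atp5mpl, Cox7c and Ndufa6. Of 83 measured cytosolic ribosomal protein genes, 19 were lower in Ad-MEM40 by the same fold.

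The highest ratios in Ad-MEM40 belonged to Ndufb9 and Ndufb5 of the complex I membrane arm, Ndufs7, an iron-sulfur subunit of complex I, Cox5a, an early-assembling subunit of complex IV, and Uqcrh, the hinge protein of complex III. Ndufb9 had 301.7 CPM in Ad-MEM40 and 250.1 in Ad-Null, at 0.27. Cox5a had 510.5 CPM in Ad-MEM40 and 444.3 in Ad-Null, at 0.20, beside 301.3 in Ad-COMBO and 384.4 in Ad-mIFNB. Ndufs7 was at 0.23, Ndufb5 at 0.19 and Uqcrh at 0.18. Melanoma-gated cells gave 19.9% of the Ndufb9 UMIs of Ad-MEM40 and 12.8% of those of Ad-Null. Without these cells Ndufs7 was at 0.21, Cox5a at 0.19, Ndufb9 at 0.19, Uqcrh at 0.15 and Ndufb5 at 0.13. None of these reached 25%.

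The mixture was also set beside each of its parts. Members were lower in Ad-COMBO than in Ad-mIFNB and, by more, than in Ad-MEM40. Against Ad-mIFNB the summed log2 ratio was -0.15 and the median member -0.17, with 11 members lower, against 7.16% of genes, and 0 higher, against 10.4%. Among the members with low ratios were Atp5g1 at -0.42, Ndufb8 at -0.39, Ndufb9 at -0.36 and Cox5a at -0.35, whereas Atp5md at 0.18 and Ndufa3 at 0.16 were highest.

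Against Ad-MEM40 the summed log2 ratio was -0.31 and the median member -0.38, and all measured genes had a median of -0.05. Here 47 members were lower, against 21.1% of genes, and 2 were higher, Ndufa3 and Ndufb1-ps, against 17.5%. Ndufa4 was lowest at -0.93, before Ndufb8 at -0.79, Atp5g1 at -0.78, Ndufb5 at -0.76 and Cox5a at -0.75. Without melanoma-gated cells, which gave 7.24% of the UMIs of Ad-MEM40, 29 members were lower, against 18.0% of genes, and 3 higher, against 17.4%. Ndufa4 was then at -0.62 and Ndufb5 at -0.63, behind Ndufb8 at -0.76, Atp5g1 at -0.74 and Cox5a at -0.72. Over all kept cells Ndufb1-ps at 0.40 and Ndufa3 at 0.33 were highest. These comparisons share libraries with those above and are not independent of them.

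Because the libraries differ in cell makeup, the members were then followed within marker-gated classes. The sum was lower in Ad-COMBO than in Ad-Null in each of the 5 classes that had at least 20 cells in both. In mature DC-gated cells the members summed to 12221 CPM in Ad-COMBO, 14744 in Ad-mIFNB, 14063 in Ad-MEM40 and 15937 in Ad-Null. In cDC1-gated cells, the cross-presenting conventional DCs, the sums were 16876, 18817, 20149 and 22029 CPM in the same order. In cDC2-gated cells, conventional DCs that mainly prime helper T cells, they were 16628, 17938, 19061 and 20662 CPM. Ad-COMBO was lowest and Ad-Null highest in all 3 of these classes.

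Plasmacytoid DC (pDC)-gated cells, known for interferon production, had 15530 CPM in Ad-COMBO, 15809 in Ad-mIFNB, 17660 in Ad-MEM40 and 17713 in Ad-Null. Macrophage-gated cells had 16260, 17919, 18488 and 19307 CPM, and monocyte-gated cells had 16711 CPM in Ad-mIFNB, 19397 in Ad-MEM40 and 21653 in Ad-Null. Ad-COMBO held only 14 monocyte-gated cells and gives no value there. The log2 ratio of Ad-COMBO to Ad-Null was -0.38 in mature DC-gated, -0.38 in cDC1-gated, -0.31 in cDC2-gated, -0.19 in pDC-gated and -0.25 in macrophage-gated cells, where it was -0.36 without cycling cells. In cells of 5000 to 15000 UMIs these ratios were -0.41, -0.35, -0.38, -0.20 and -0.66 in the same order of classes, from as few as 12 Ad-COMBO cells. With each class weighted equally the ratio was -0.30.

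For Ad-mIFNB against Ad-Null the class ratios ran from -0.37 in monocyte-gated to -0.11 in macrophage-gated cells. The cDC1-gated ratio was -0.23 over all depths and 0.15 in cells of 5000 to 15000 UMIs, 68 of them in Ad-mIFNB. For Ad-MEM40 the ratios ran from -0.18 in mature DC-gated to -0.00 in pDC-gated cells, and in the same depth range were 0.19 in cDC1-gated and 0.13 in macrophage-gated cells. The sums of mitochondrially encoded subunits did not follow the nuclear ones in every class: their log2 ratio of Ad-COMBO to Ad-Null was 0.28 in cDC1-gated and -0.45 in mature DC-gated cells. Cytosolic ribosomal protein genes moved with the members, from -0.56 in mature DC-gated to -0.27 in pDC-gated and cDC1-gated cells of Ad-COMBO. Their part in the member ratios was not tested.

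**Figure D2:**
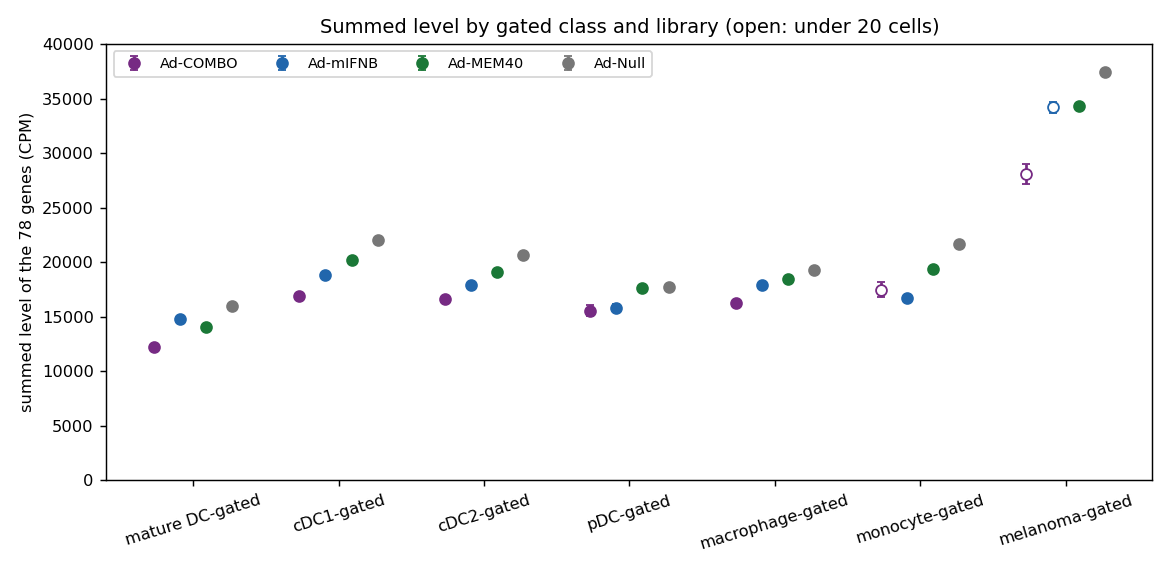
Summed level of the 78 members in CPM for each marker-gated class and library, with 1 point per sum, open where it has under 20 cells, and exact Poisson intervals that cover counting error only. Among the myeloid sums of at least 20 cells, cDC1-gated cells are highest and mature DC-gated cells lowest in each library, and Ad-COMBO lies below Ad-Null in each of the 5 classes with at least 20 cells in both.

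Gene by gene, 51 of 74 members were lower in Ad-COMBO than in Ad-Null in all 5 classes, against 14.4% of measured genes, and 0 were higher in all, against 9.82%. In Ad-mIFNB 37 were lower in all 6 classes, against 8.62%, and in Ad-MEM40 27 were lower, against 7.74%, and 8 higher, against 11.4%. Ndufa4 ranged over the classes from -0.67 to -0.23 in Ad-COMBO, Atp5g1 from -0.77 to -0.29 and Ndufc1 from -0.82 to -0.43. Uqcr11 ranged from -0.84 to -0.30 and Ndufb8 from -0.65 to -0.15, so each of the 5 members with the lowest ratios over all cells was also below Ad-Null in every class. Cox7a2l ranged from -0.49 in mature DC-gated to 0.20 in cDC2-gated cells.

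In the 5 classes with 4 libraries, 21 of 74 members were lowest in Ad-COMBO every time, against 4.89% of measured genes. They include Atp5a1 and Atp5b of the catalytic head of ATP synthase, Atp5c1 and Atp5d of its central stalk and Atp5f1 of its stator. Also among them were Uqcrfs1, the Rieske iron-sulfur protein of complex III, Cox5a, and Ndufs7 and Ndufs8 of the complex I core. Another 5 members, Ndufa1, Ndufa3, Ndufb1-ps, Cox7c and Atp5mpl, were lowest in Ad-MEM40 in all 5 classes, against 1.02% of measured genes. Ndufb1-ps lay between -0.73 and -0.53 in Ad-MEM40 over the classes, and Ndufb9 between 0.10 and 0.37.

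The classes themselves can be tested, since all 4 libraries hold them. UMIs were summed per library and class, and each class was compared with the mean of the other classes by edgeR's quasi-likelihood test with the library as a block, adjusting by Benjamini-Hochberg over all genes tested. Called means an adjusted p under 0.05, and 77 members were tested. No member was a gate marker, and the libraries are the replicates, although they differ in treatment. Over the libraries the summed members averaged 14241 ± 1553 CPM in mature DC-gated cells, 19468 ± 2173 in cDC1-gated, 18572 ± 1712 in cDC2-gated, 16678 ± 1170 in pDC-gated and 17994 ± 1288 in macrophage-gated cells (SD, n = 4 each), and 19254 ± 2474 in monocyte-gated cells (SD, n = 3). Among sums of at least 20 cells, cDC1-gated cells were highest and mature DC-gated cells lowest in every library. The means of cDC1-gated, cDC2-gated and macrophage-gated cells each differ from the next by less than 1 SD. That SD includes the differences between libraries, and within each of the 4 libraries these classes stood in that order. The monocyte-gated mean lacks Ad-COMBO, the lowest library in the other classes, and is not directly comparable.

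**Figure D3:**
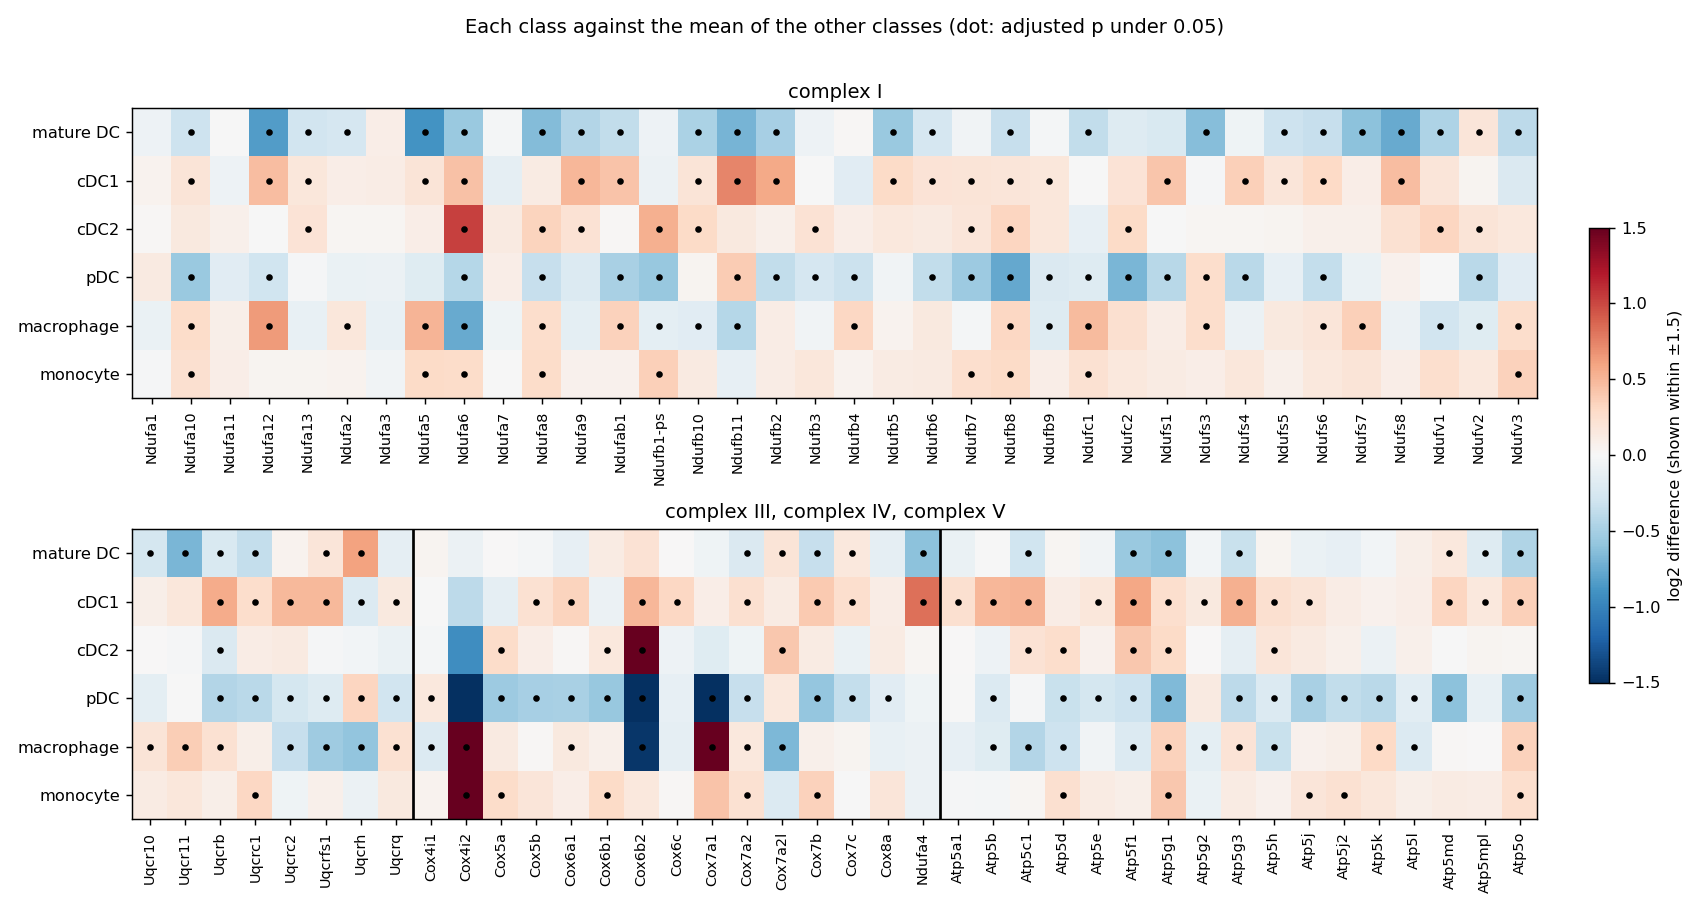
Log2 difference of each tested member between a marker-gated class and the mean of the other classes, from edgeR's fit, as colour within ±1.5 with 1 line per class and 1 column per member shown, and a dot where the adjusted p is under 0.05. Over all tested members, 37 were called lower in mature DC-gated cells and 46 higher in cDC1-gated cells.

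Mature DC-gated cells carried less of many subunits, among them most of complex I. Of 77 members 37 were lower, against 28.4% of genes, and 6 higher, against 31.7%, and complex I held 24 of the lower ones out of 37. Complex III had 4 of 8 lower, complex IV 3 of 15 and complex V 6 of 17. Total-count scaling, which moved the median of all genes to -0.22, gave 66 lower and 1 higher, and with each library left out in turn 1 to 3 were higher.

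Ndufa5, an accessory subunit of the peripheral arm of complex I, had 37.1, 48.3, 39.6 and 56.1 CPM in mature DC-gated cells of Ad-COMBO, Ad-mIFNB, Ad-MEM40 and Ad-Null, against 77.1, 87.7, 96.3 and 122 CPM in cDC1-gated cells. The libraries of the 2 classes do not overlap, and the log2 difference from the mean of the other classes was -0.89 ± 0.08 (SE, edgeR adjusted p = 1.47e-09). Ndufa12, also of the peripheral arm, was at -0.84 ± 0.10 (SE, edgeR adjusted p = 2.59e-07). Ndufs8, an iron-sulfur subunit, was at -0.76 ± 0.10 (SE, edgeR adjusted p = 1.17e-06) and Ndufb11, an X-linked membrane-arm subunit, at -0.70 ± 0.08 (SE, edgeR adjusted p = 8.03e-08). Among the subunits that rose, Uqcrh had 412, 437, 501 and 488 CPM in mature DC-gated cells, against 221, 272, 336 and 278 CPM in macrophage-gated cells, and stood at 0.60 ± 0.07 (SE, edgeR adjusted p = 5.21e-08). Cox7a2l at 0.20, Uqcrfs1 at 0.18 and Ndufv2 at 0.18 also passed, but turned to -0.022, -0.039 and -0.041 under total-count scaling.

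cDC1-gated cells carried more of many members. Of 77, 46 were higher, against 29.6% of genes, and 1 lower, against 29.4%. Higher were 20 of 37 members of complex I, 5 of 8 of complex III, 8 of 15 of complex IV and 13 of 17 of complex V. Cells of 5000 to 15000 UMIs gave 28 higher and 0 lower, and edgeR without the library block 23 and 0. Without Ad-MEM40 the higher count was 30, and the lower count was 3 without Ad-COMBO and 0 without any of the other libraries. Ndufa4 had 261, 315, 401 and 418 CPM in cDC1-gated cells of Ad-COMBO, Ad-mIFNB, Ad-MEM40 and Ad-Null, against 108, 137, 138 and 148 CPM in mature DC-gated cells. Every cDC1-gated library was above every mature DC-gated one, and the difference from the other classes was 0.83 ± 0.07 (SE, edgeR adjusted p = 5.33e-10).

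Ndufb11 was higher in cDC1-gated cells by 0.74 ± 0.07 (SE, edgeR adjusted p = 5.73e-09), with 215, 233, 323 and 301 CPM in Ad-COMBO, Ad-mIFNB, Ad-MEM40 and Ad-Null, against 72.1, 101, 116 and 120 CPM in mature DC-gated cells. Atp5f1, stator subunit b of ATP synthase, was at 0.58 ± 0.06 (SE, edgeR adjusted p = 1.78e-08) and Ndufb2 at 0.56 ± 0.07 (SE, edgeR adjusted p = 2.00e-07). The 1 member that fell was Uqcrh, at -0.21 ± 0.07 (SE, edgeR adjusted p = 0.0135). Atpif1, which is no member and encodes the protein that blocks ATP synthase from running backwards, had 634, 650, 757 and 800 CPM in cDC1-gated cells, against 297, 270, 287 and 368 CPM in mature DC-gated and 150, 134, 169 and 190 CPM in pDC-gated cells.

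cDC2-gated cells stood closer to the rest, with a few subunits set apart. Higher were 22 members, against 19.6% of genes, and lower 1, against 19.8%, with 13 of the higher ones in complex I. The higher count was 10 in cells of 5000 to 15000 UMIs, 6 without the library block, 10 without Ad-MEM40 and 13 without Ad-Null, and the lower count was 0 without any 1 library. Ndufa6, an accessory subunit of the peripheral arm, had 451, 484, 467 and 516 CPM in cDC2-gated cells of Ad-COMBO, Ad-mIFNB, Ad-MEM40 and Ad-Null, against 159, 210, 170 and 180 CPM in macrophage-gated cells. It was higher by 1.03 ± 0.06 (SE, edgeR adjusted p = 2.16e-11), the strongest rise of a well-expressed member in the class. Ndufb1-ps at 0.54 ± 0.06 (SE, edgeR adjusted p = 5.70e-07) and Atp5f1 at 0.41 ± 0.06 (SE, edgeR adjusted p = 1.51e-05) followed, and Uqcrb, the ubiquinone-binding protein of complex III, fell to -0.21 ± 0.07 (SE, edgeR adjusted p = 0.0287).

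pDC-gated cells carried less of many members in every complex. Cox6a2, a marker of the pDC gate and no member, is not counted in complex IV here. It had more UMIs than Cox6a1 in each pDC-gated sum. Lower were 47 members, against 28.9% of genes, and higher 4, against 27.2%. Complex V had 13 of 17 lower, complex IV 10 of 15, complex III 5 of 8 and complex I 19 of 37. Without Ad-Null 30 were lower, without Ad-MEM40 or without Ad-Null 2 were higher, and total-count scaling, with a median of all genes at 0.10, gave 30 lower and 9 higher. Cells of 5000 to 15000 UMIs gave 22 lower. Ndufb8 had 120, 141, 170 and 134 CPM in pDC-gated cells of Ad-COMBO, Ad-mIFNB, Ad-MEM40 and Ad-Null, against 161, 209, 262 and 255 CPM in cDC1-gated cells, and stood at -0.77 ± 0.09 (SE, edgeR adjusted p = 1.76e-07).

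Ndufc2, another membrane-arm subunit, was at -0.69 ± 0.13 (SE, edgeR adjusted p = 9.81e-05), with 37.4 CPM in Ad-COMBO, 145 in Ad-mIFNB, 118 in Ad-MEM40 and 112 in Ad-Null. The Ad-COMBO sum rests on 23 cells and stands apart. The members that rose were Ndufb11 at 0.38, Uqcrh at 0.32, Ndufs3, a core subunit of the peripheral arm of complex I, at 0.26 and Cox4i1, the main isoform of subunit 4 of complex IV, at 0.16. Their edgeR adjusted p values were 3.76e-04, 4.96e-04, 0.0374 and 0.0364 in that order. By contrast 12 of 13 mitochondrially encoded subunits were higher in pDC-gated cells.

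Macrophage-gated cells were mixed, with 25 members higher, against 33.1% of genes, and 21 lower, against 27.5%. This split depended on scaling and depth: total-count scaling gave 36 higher and 11 lower, and cells of 5000 to 15000 UMIs gave 5 higher and 23 lower. Without Ad-MEM40 13 were lower and without Ad-Null 11, and without the library block 8 were higher and 12 lower. The falls included Ndufa6 at -0.76 ± 0.07 (SE, edgeR adjusted p = 1.36e-09), Cox7a2l at -0.67 ± 0.08 (SE, edgeR adjusted p = 3.71e-07) and Uqcrh at -0.59 ± 0.07 (SE, edgeR adjusted p = 2.55e-07). Cox7a2l had 156, 184, 198 and 160 CPM in macrophage-gated cells of Ad-COMBO, Ad-mIFNB, Ad-MEM40 and Ad-Null, against 330, 293, 330 and 286 CPM in cDC2-gated cells, and the libraries of the classes do not overlap. The rises included Ndufa12 at 0.63 ± 0.09 (SE, edgeR adjusted p = 1.51e-06) and Ndufa5 at 0.51 ± 0.07 (SE, edgeR adjusted p = 6.57e-07), both of them low in mature DC-gated cells. All 13 mitochondrially encoded subunits were higher in macrophage-gated cells, and 77 of 85 cytosolic ribosomal protein genes were lower.

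Monocyte-gated cells had 20 members higher, against 16.0% of genes, and 0 lower, against 9.90%, but each of the higher counts without Ad-MEM40 and without Ad-Null was 2. The higher count was 4 in cells of 5000 to 15000 UMIs, 5 without the library block, 6 with no filter on low counts, 13 with doublets kept and 34 by DESeq2. The well-expressed members with the largest rises were Atp5g1 at 0.40 ± 0.09 (SE, edgeR adjusted p = 2.17e-03), Ndufb1-ps at 0.35 ± 0.07 (SE, edgeR adjusted p = 8.44e-04) and Ndufv3, a flavoprotein-arm accessory subunit, at 0.35 ± 0.12 (SE, edgeR adjusted p = 0.0355).

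Where complex IV and the subunit c ring have alternative genes, the classes differed in which were present. Ndufa4 has a related gene, AA467197, whose human counterpart is known to replace NDUFA4 in complex IV during inflammation, and which is not a member. In mature DC-gated cells AA467197 had 477, 379, 427 and 429 CPM in Ad-COMBO, Ad-mIFNB, Ad-MEM40 and Ad-Null, and in cDC1-gated cells 30.8, 16.7, 12.6 and 14.7 CPM. The log2 difference from the other classes was 2.12 ± 0.28 in mature DC-gated (SE, edgeR adjusted p = 9.06e-07) and -3.68 ± 0.42 in cDC1-gated cells (SE, edgeR adjusted p = 1.30e-07). The order of these classes is the opposite of that of Ndufa4, which in mature DC-gated cells was at -0.61 ± 0.08 (SE, edgeR adjusted p = 3.77e-07). AA467197 was also higher in monocyte-gated cells, by 2.05 ± 0.32 (SE, edgeR adjusted p = 5.77e-05), and in cDC2-gated cells, by 1.14 ± 0.30 (SE, edgeR adjusted p = 4.04e-03). In pDC-gated cells it had 4.15 CPM in Ad-COMBO, 225 in Ad-mIFNB, 29.5 in Ad-MEM40 and 21.2 in Ad-Null, so 1 library stands apart.

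Ndufa4 did not pass the test in cDC2-gated, pDC-gated, macrophage-gated or monocyte-gated cells, with differences of 0.03, -0.06, -0.09 and -0.09. Ndufa4l2, known as its hypoxia-induced relative, had at most 26 UMIs in any class sum of the myeloid classes, in macrophage-gated Ad-MEM40 cells. It therefore has no comparison.

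**Figure D4:**
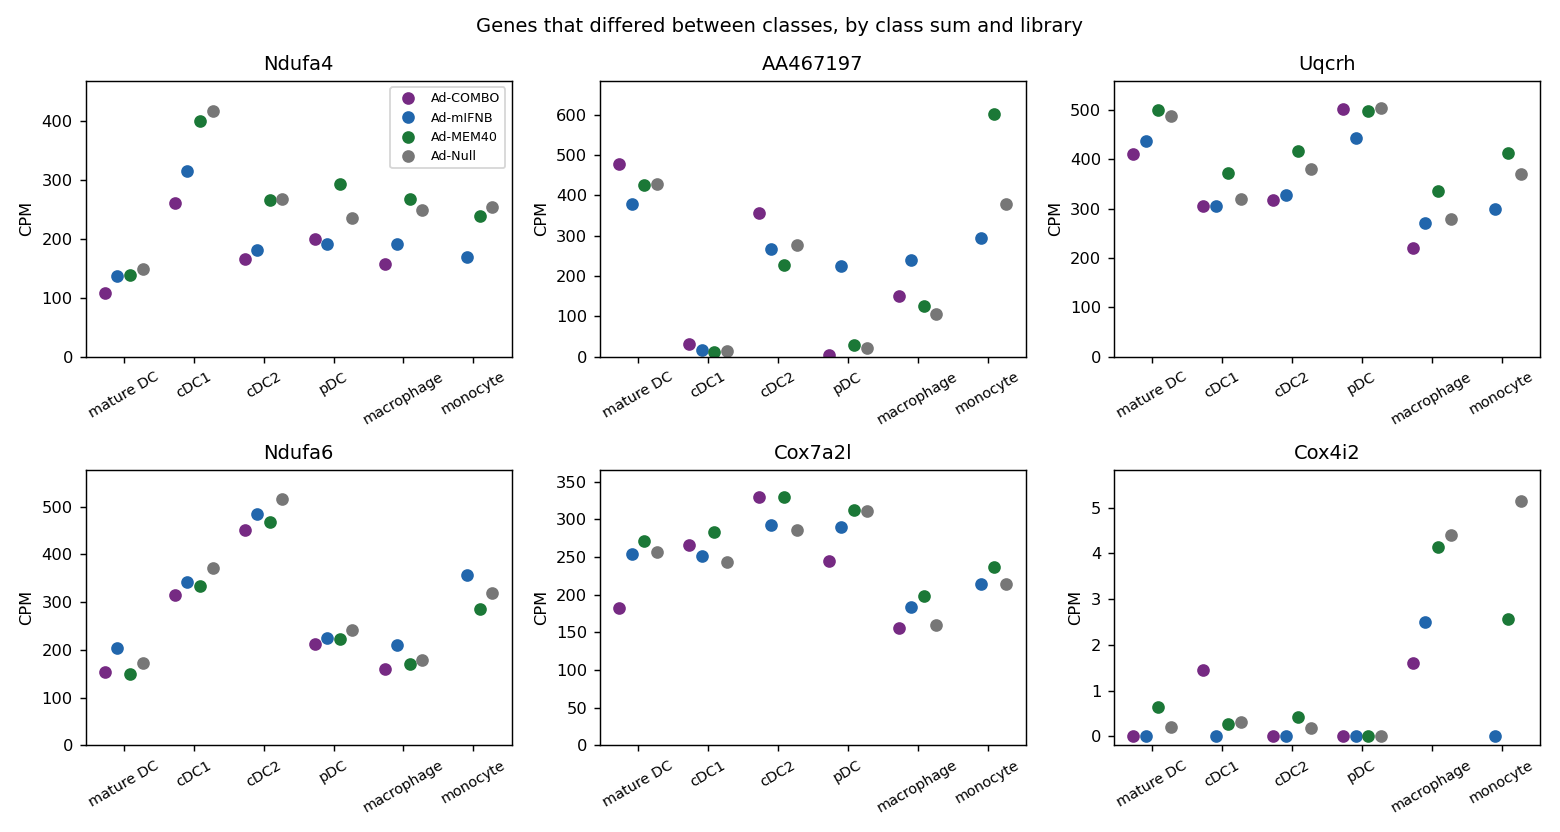
CPM of Ndufa4, AA467197, Uqcrh, Ndufa6, Cox7a2l and Cox4i2 in each marker-gated class, with 1 point per library. In mature DC-gated cells Ndufa4 is at 108 to 148 CPM and AA467197 at 379 to 477 CPM, and in cDC1-gated cells Ndufa4 is at 261 to 418 CPM and AA467197 at 12.6 to 30.8 CPM.

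Tissue-restricted isoforms of complex IV among the members were rare and uneven. In pDC-gated cells of Ad-COMBO, Ad-mIFNB, Ad-MEM40 and Ad-Null, Cox6a2, which is no member, had 178, 248, 1120 and 2412 UMIs. Cox6a1 had 42, 130, 279 and 593 UMIs there. Cox6a2 is a marker of the pDC gate, so its level in that class is not independent of the gate. Cox4i2, the alternative isoform of subunit 4, known from lung, had 3, 13, 198 and 114 UMIs in macrophage-gated cells of Ad-COMBO, Ad-mIFNB, Ad-MEM40 and Ad-Null. It had at most 8 UMIs in any mature DC-gated, cDC1-gated or cDC2-gated sum and 0 in every pDC-gated sum. Its fitted differences, 3.77 in macrophage-gated and 3.57 in monocyte-gated cells, passed (edgeR adjusted p = 4.41e-07 and 6.81e-04), but rest on these few counts. Cox7a1, the heart and muscle isoform of subunit 7a, had 17.7, 11.7, 9.87 and 12.6 CPM in macrophage-gated cells and 3.98, 4.58, 3.22 and 6.22 CPM in cDC1-gated cells of the same libraries. It was higher in macrophage-gated cells by 1.71 ± 0.19 (SE, edgeR adjusted p = 7.11e-08) and lower in pDC-gated cells, where 0 to 5 UMIs were counted per library.

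Cox6b2, known as the testis isoform of subunit 6b, had 4.34, 8.02, 13.1 and 13.2 CPM in cDC2-gated cells of Ad-COMBO, Ad-mIFNB, Ad-MEM40 and Ad-Null, against 0.537, 1.34, 1.47 and 1.93 CPM in macrophage-gated cells. It rose by 2.14 ± 0.15 in cDC2-gated cells (SE, edgeR adjusted p = 3.02e-10) and fell to -1.46 ± 0.21 in macrophage-gated cells (SE, edgeR adjusted p = 2.76e-06). The main isoforms Cox6b1, Cox7a2 and Cox8a were present in all classes. Cox8a had 684.5 CPM in Ad-COMBO, 777.8 in Ad-mIFNB, 850.5 in Ad-MEM40 and 865.1 in Ad-Null over all kept cells, and Cox4i1 had 587.4, 663.2, 813.1 and 735.7 CPM.

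The 3 genes of subunit c encode the same mature protein and differ in their import signals. Atp5g1 was lower in mature DC-gated cells (-0.62, edgeR adjusted p = 1.70e-06), with 115, 176, 183 and 198 CPM in Ad-COMBO, Ad-mIFNB, Ad-MEM40 and Ad-Null, against 290, 331, 383 and 386 CPM in macrophage-gated cells. Atp5g3 was higher in cDC1-gated cells (0.53, edgeR adjusted p = 2.41e-06). Over all kept cells Atp5g2 had 318.5 CPM in Ad-COMBO and 418.8 in Ad-Null, at -0.39, and Atp5g3 had 173.0 and 225.9 CPM, at -0.38. All 3 genes were thus lower in Ad-COMBO than in Ad-Null by at least 20%, with Atp5g1 lowest.

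Cycling cells, those with at least 3 of 8 mitotic genes, were compared with the other cells of the same class. In macrophage-gated cells the members were higher in cycling cells: they summed to 20544, 20683, 20197 and 20957 CPM in cycling cells of Ad-COMBO, Ad-mIFNB, Ad-MEM40 and Ad-Null, against 14045, 16711, 17727 and 18027 CPM in the other cells. The libraries of the 2 states do not overlap. The Ad-COMBO sum of cycling cells rests on 21 cells with 635030 UMIs, beside 71 other cells with 1228108 UMIs. Cycling and other cells were not compared at matched depth, here or in cDC1-gated cells. Of 77 members 20 were higher, against 13.5% of genes, and 0 lower, against 15.0%. The higher count was 45 with total-count scaling, 31 with no filter on low counts, 12 with doublets kept and 4 without the library block. It was 7 without Ad-MEM40, 9 without Ad-mIFNB and 7 without Ad-Null. Atp5o, which ties the ATP synthase head to its stalk, was at 0.49 ± 0.09 (SE, edgeR adjusted p = 1.95e-03), Ndufab1, the mitochondrial acyl carrier protein, at 0.47 ± 0.09 (SE, edgeR adjusted p = 2.80e-03), Ndufa4 at 0.46 ± 0.10 (SE, edgeR adjusted p = 5.64e-03) and Ndufa5 at 0.45 ± 0.10 (SE, edgeR adjusted p = 8.02e-03).

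Among cDC1-gated cells the 2 states were closer. The sums were 16721, 19807, 20505 and 22313 CPM in cycling cells of Ad-COMBO, Ad-mIFNB, Ad-MEM40 and Ad-Null, against 16938, 18289, 19870 and 21755 CPM in the other cells. Of 76 members tested 12 were higher, against 17.6% of genes, and 7 lower, against 14.6%, and DESeq2's size factors gave 8 and 9. DESeq2 gave 3 higher, the stricter cell filter 4, and edgeR without the library block 0 and 0. Without Ad-MEM40 or without Ad-Null 2 were higher and 3 lower. Ndufa5 was at 0.33 ± 0.06 (SE, edgeR adjusted p = 1.98e-04) and Atp5o at 0.27 ± 0.06 (SE, edgeR adjusted p = 1.05e-03), while Ndufa6 was at -0.29 ± 0.05 (SE, edgeR adjusted p = 1.99e-04) and Ndufa13, a complex I subunit also known as GRIM-19, at -0.24 ± 0.05 (SE, edgeR adjusted p = 1.00e-03). AA467197 fell to -0.94 in cycling cDC1-gated cells (edgeR adjusted p = 1.91e-03).

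Melanoma-gated cells had the highest member sums, with 34269 CPM in Ad-MEM40 and 37395 in Ad-Null. Ad-COMBO and Ad-mIFNB held 2 and 8 such cells and are not compared. Melanoma-gated cells gave 1.86% of the UMIs of Ad-mIFNB, and without them the summed ratios to Ad-Null were -0.36, -0.22 and -0.12 in Ad-COMBO, Ad-mIFNB and Ad-MEM40.

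Companion lists show what else was lower with the members in Ad-COMBO over all kept cells, where the libraries also differ in cell makeup. Mature DC-gated cells were more frequent in Ad-COMBO than in Ad-Null. Their median differences from the other classes ran from -0.36 for mitochondrial to -0.06 for cytosolic ribosomal proteins over the lists of this paragraph. The part of cell makeup in the counts was not tested. Measured against the same background of 17.6% lower and 19.0% higher, the TCA cycle, which feeds complex I with NADH, had 10 of 17 genes lower and 0 higher. Mitochondrial ribosomal proteins had 33 of 77 lower and cytosolic ribosomal proteins 51 of 83 lower and 1 higher. The import machinery had 8 of 17 lower and 1 higher, fatty acid oxidation 7 of 14 lower and 1 higher, and glycolysis 7 of 17 lower and 3 higher. Respiratory chain assembly factors were spread both ways, with 6 of 34 lower and 4 higher. The 4 genes of complex II, which feeds the chain from succinate, had 0 lower and 0 higher by these limits. Their summed log2 ratio was nevertheless -0.23 and their median -0.18.

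The 13 mitochondrially encoded subunits had 7 lower in Ad-COMBO and 11 lower in Ad-mIFNB, with median log2 ratios to Ad-Null of -0.39 and -0.55, and 1 lower in Ad-MEM40, with a median of -0.05. For the nuclear members the corresponding medians were -0.39, -0.21 and -0.02. The summed levels gave another picture in Ad-COMBO. In the same order of libraries their ratios were -0.14, -0.40 and -0.01 for the mitochondrially encoded subunits and -0.40, -0.24 and -0.08 for the members. In Ad-COMBO against Ad-mIFNB the median was 0.23 for the mitochondrially encoded and -0.17 for the nuclear subunits. Among regulators of mitochondrial biogenesis, 1 of 7 measured genes was lower and 1 higher in Ad-COMBO, with a median of -0.02. Yy1 had 130 CPM in Ad-COMBO, 135 in Ad-mIFNB, 133 in Ad-MEM40 and 128 in Ad-Null.

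**Figure D5:**
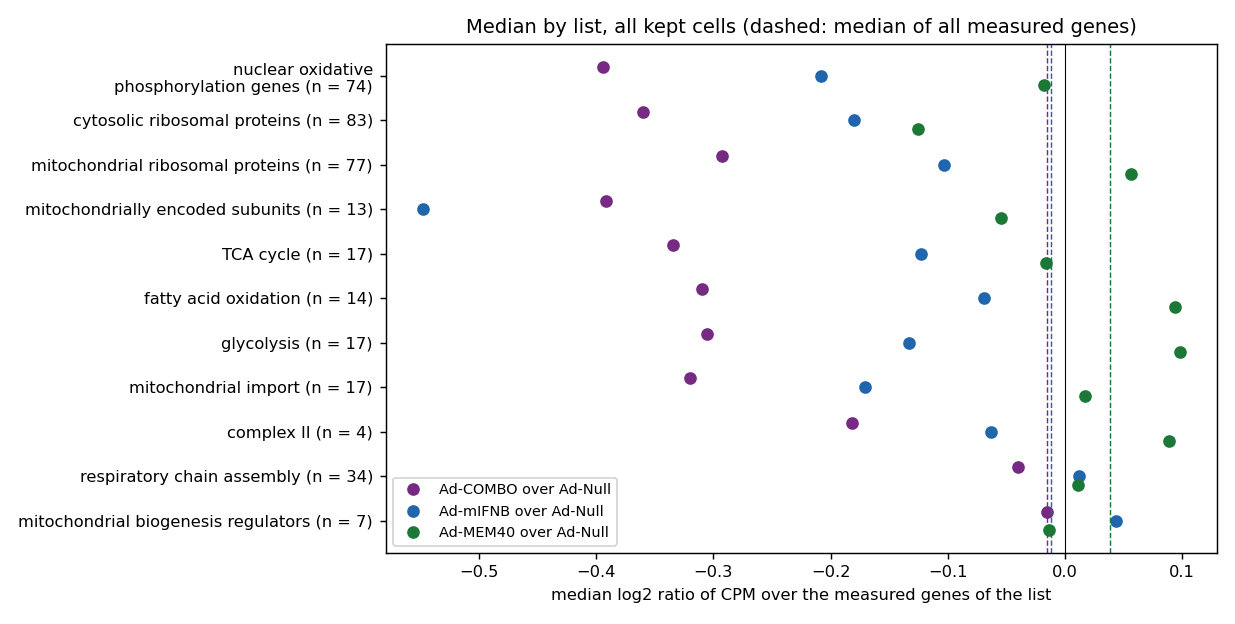
Median log2 ratio to Ad-Null (5 CPM added) of the members and of each companion list in Ad-COMBO, Ad-mIFNB and Ad-MEM40, with dashed lines for the medians of all measured genes. The members lie at -0.39, -0.21 and -0.02 in this order of libraries, and the mitochondrially encoded subunits at -0.39, -0.55 and -0.05. The summed level of the mitochondrially encoded subunits, not drawn, was at -0.14 in Ad-COMBO.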

How the data were processed

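Sorted CD11c+ MHC-II+ cells of 4 libraries were analysed from the deposited UMI counts per gene and cell. Cell Ranger 3.0 and Seurat 4.0 are named in the submitters' processing notes and Cell Ranger 6.0.0 in a matrix header. How reads of near-identical gene copies, such as processed pseudogenes, were counted is not given in the sources used here. Cells with at least 500 genes and at most 10% mitochondrial UMIs were kept, and doublets called by Scrublet (scanpy 1.11.5) were removed, 3 in Ad-COMBO, 3 in Ad-mIFNB, 2278 in Ad-MEM40 and 1459 in Ad-Null. The caller's own threshold marked 0 cells in Ad-MEM40, where the highest scores up to the expected share were taken instead, so doublets were not removed alike in the 4 libraries. Kept libraries held 9604364 (Ad-COMBO) to 139706567 (Ad-MEM40) UMIs. A cell entered a class when at least 50% of that class's markers had a UMI, at least 10 percentage points more than for any other class. UMIs were summed per library and class, with at least 20 cells a sum. Library ratios have no test. Classes were tested with edgeR 4.0.16 (R 4.3.3), the library as a block, since each library holds every class apart from too few monocyte-gated cells in Ad-COMBO. DESeq2 1.42.0 was an alternative. Only the fit for mature DC-gated cells was tried on simulated data, and its outcome is not given here. Named members are the 5 highest and lowest of at least 50 CPM per library comparison, the 4 largest called rises and falls per class, and fixed alternative subunits; the other members named in counts were chosen after their values were seen. A member that the rule names is not reported here. Members, lists and tests were chosen with earlier results of these data known. Positions are from GENCODE M21 (GRCm38). The treatment labels do not say whether the pooled tumors came from separate mice.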

Additional observations from a re-analysis of the deposited data

How the results depend on the processing

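Summed log2 ratios to Ad-Null of Ad-COMBO, Ad-mIFNB and Ad-MEM40, followed by Ad-COMBO against Ad-mIFNB and against Ad-MEM40, are given in that order for each setting. They were -0.38, -0.26, -0.094, -0.12 and -0.28 with the stricter cell filter; -0.44, -0.23, -0.070, -0.21 and -0.37 over all barcodes; and -0.48, -0.23, -0.092, -0.25 and -0.39 in cells thinned to 1000 UMIs. Without mitochondrially encoded and ribosomal protein genes they were -0.47, -0.30, -0.12, -0.18 and -0.35, and with classes weighted equally -0.30, -0.20, -0.11, -0.14 and -0.21. In cells of 5000 to 15000 UMIs they were -0.45, -0.19, 0.039, -0.26 and -0.49, the 1 reversal of a sum, and without melanoma-gated cells -0.36, -0.22, -0.12, -0.14 and -0.24, with 29 members lower by at least 20% in Ad-COMBO against Ad-MEM40. With doublets kept, the ratios to Ad-Null were -0.39, -0.23 and -0.071, and without cycling cells -0.37, -0.23 and -0.10, with -0.28 for Ad-COMBO against Ad-MEM40. Ad-COMBO and Ad-mIFNB thus stayed below Ad-Null in each of these settings. Centring on the median of all genes gave 7 members lower by at least 20% in Ad-COMBO against Ad-mIFNB.

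Counts of called members moved more. Without the replicate block, the library, edgeR gave 1 higher in mature DC-gated cells, 23 higher and 0 lower in cDC1-gated, 6 and 0 in cDC2-gated, 2 higher in pDC-gated, 8 and 12 in macrophage-gated, 5 higher in monocyte-gated, 0 and 0 in cycling cDC1-gated and 4 higher in cycling macrophage-gated cells. Leaving out 1 library at a time gave, for members higher and lower, 1 to 3 and 31 to 46 in mature DC-gated cells, 30 to 47 and 0 to 3 in cDC1-gated, 10 to 26 and 0 in cDC2-gated, 2 to 3 and 30 to 50 in pDC-gated, 18 to 22 and 11 to 23 in macrophage-gated, 2 to 24 and 0 to 1 in monocyte-gated, 2 to 14 and 3 to 9 in cycling cDC1-gated, and 7 to 23 and 0 to 1 in cycling macrophage-gated cells.

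With no filter on low counts there were 1 higher in mature DC-gated, 0 lower in cDC1-gated, 0 lower in cDC2-gated, 2 higher in pDC-gated, 12 lower in macrophage-gated, 6 higher in monocyte-gated and 31 higher in cycling macrophage-gated cells. Total-count scaling gave 1 higher and 66 lower in mature DC-gated, 2 lower in cDC1-gated, 9 higher and 30 lower in pDC-gated, 11 lower in macrophage-gated and 45 higher in cycling macrophage-gated cells, and turned Cox7a2l to -0.022, Uqcrfs1 to -0.039 and Ndufv2 to -0.041 in mature DC-gated cells. Cells of 5000 to 15000 UMIs gave 28 higher and 0 lower in cDC1-gated, 10 and 0 in cDC2-gated, 22 lower in pDC-gated, 5 higher in macrophage-gated and 4 higher in monocyte-gated cells. DESeq2 gave 6 lower in cDC1-gated, 34 higher in monocyte-gated and 3 higher in cycling cDC1-gated cells, and its size factors in edgeR 3 lower in cDC1-gated and 2 higher in pDC-gated cells. The stricter cell filter gave 2 higher in pDC-gated, 4 higher in cycling cDC1-gated and 1 lower in cycling macrophage-gated cells. Keeping doublets gave 2 lower in cDC2-gated, 2 higher in pDC-gated, 13 higher in monocyte-gated and 12 higher in cycling macrophage-gated cells. Leaving out cycling cells gave 1 higher in mature DC-gated, 0 lower in cDC1-gated and 0 lower in cDC2-gated cells. Asking for 1 more marker gave 3 higher in mature DC-gated, 4 lower in cDC1-gated and 2 higher in pDC-gated cells. Causes were not tested.

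Of the values of single genes, 915 were unchanged in call and direction, 104 lost their call, 34 moved, 6 gained a call and 3 reversed. Total-count scaling, the depth range, leaving out melanoma-gated cells and testing 1 class at a time were chosen after seeing the data. Ad-COMBO has the fewest cells, so its pDC-gated and cDC2-gated sums are the least precise.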

Other observations

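Some genes of the companion lists ran opposite to the members in Ad-COMBO and Ad-mIFNB. Genes of these lists were named by the size of their ratios. Acadl, the long-chain acyl-CoA dehydrogenase, had 353 CPM in Ad-COMBO, 356 in Ad-mIFNB, 209 in Ad-MEM40 and 209 in Ad-Null. Sco1, a copper chaperone for complex IV assembly, had 42.6 CPM in Ad-COMBO, 28.2 in Ad-mIFNB, 9.03 in Ad-MEM40 and 10.3 in Ad-Null. Both were higher in the 2 libraries that received mIFNB. Cycs, cytochrome c, which carries electrons between complexes III and IV, had 299.6 CPM in Ad-COMBO, 315 in Ad-mIFNB, 253 in Ad-MEM40 and 268 in Ad-Null, and Pfkfb3, an activator of glycolysis, had 109.95, 71.4, 76.0 and 57.5 CPM.

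The genes with the lowest ratios in their lists included Idh3a, a subunit of the isocitrate dehydrogenase of the TCA cycle, with 15.8 CPM in Ad-COMBO, 26.0 in Ad-mIFNB, 31.4 in Ad-MEM40 and 35.2 in Ad-Null. Mrpl28, a protein of the mitochondrial ribosome, had 31.3, 46.9, 66.0 and 62.3 CPM, lowest in Ad-COMBO. The mitochondrially encoded mt-Nd4l had 172 and 167 CPM in Ad-COMBO and Ad-mIFNB, against 313 in Ad-MEM40 and 364 in Ad-Null.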
